A study of Homo sapiens with 6 samples.

Results

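The genes described here are the core parts of the transforming growth factor β (TGF-β) pathway: the 3 ligands TGFB1, TGFB2 and TGFB3, the 3 receptors TGFBR1, TGFBR2 and TGFBR3, and the SMAD genes SMAD2, SMAD3, SMAD4 and SMAD7. Their rows were picked out by gene symbol, and all 10 were found once each among the 60748 genes of the deposited table, of which 41175 had a count in at least 1 library. RNA was sequenced from LX-2, an established human cell line of hepatic stellate cells, the pericytes of the liver sinusoid. LX-2FAP cells stably overexpressed fibroblast activation protein α (FAPα), a cell surface serine protease of activated fibroblasts, from a lentiviral plasmid, and LX-2Vector cells carried the corresponding vector. According to the study's methods, that vector (GV367) had a ubiquitin promoter, EGFP and puromycin resistance, so both groups share infection and selection. There were 3 libraries of each group, all from cells cultured for 24 h, and nothing in the labels says that they came from separate cultures, so p-values measure the spread between these libraries, which may be technical. The methods also say that stable clones were picked with puromycin, and the labels name no separate infections. The comparison is therefore of LX-2FAP with LX-2Vector cells as derived lines. An effect of FAPα overexpression on RNA and other differences between these lines cannot be told apart.

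TGF-β ligands are secreted in a latent complex and, once released, bind the type II receptor, which phosphorylates the type I receptor. The type I receptor then phosphorylates SMAD2 and SMAD3, which enter the nucleus with SMAD4 and regulate genes of the extracellular matrix and cytoskeleton, whereas SMAD7 is an induced inhibitor that blocks the receptor. In the liver the pathway is known for driving stellate cells to become matrix-producing myofibroblasts.

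The libraries held 17355700 to 26352060 counts in genes. FAP itself had 49, 42 and 55 counts in the LX-2Vector libraries and 14864, 15160 and 14805 in the LX-2FAP libraries, so each library matched its label. Of 13 markers of stellate cells, 9 had a mean above 1 CPM (counts scaled to a common library size), led by VIM, and the quiescence genes LRAT and GFAP, with DES, lay below 1 CPM. Their summed level was 1883.8 to 1992.4 CPM in LX-2Vector and 1946.2 to 2071.3 CPM in LX-2FAP. Most of that sum was VIM, at 1517.0 to 1583.5 and 1677.3 to 1727.1 CPM, higher in every LX-2FAP library than in any control. COL1A1 (275 to 328 and 199 to 265 CPM), PDGFRB (22.2 to 26.6 and 17.2 to 21.7 CPM) and ACTA2 (3.44 to 4.09 and 2.72 to 3.17 CPM) were lower in every LX-2FAP library than in any control. The groups overlapped for COL1A2, HAND2, LHX2, RGS5 and NGFR. Of all tested genes, 26.4% had groups that did not overlap in CPM. The defining hepatocyte genes ALB, APOA1, TTR and CYP3A4 were below 1 CPM, and the summed hepatocyte list, nearly all of it SERPINA1, was 12.9 to 14.8 CPM in LX-2Vector and 10.5 to 11.8 CPM in LX-2FAP. The endothelial list summed to 9.92 to 11.3 and 7.34 to 9.21 CPM, the epithelial list, nearly all KRT8, to 162 to 171 and 146 to 162 CPM, and the macrophage and leukocyte list to 10.5 to 12.7 and 9.68 to 11.8 CPM, and their part in the results was not tested. In RNA from whole cultures, fewer cells that express a gene and less of its RNA per cell cannot be told apart.

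All 10 members passed the filter on low counts, and none passed an adjusted p of 0.05 in the edgeR quasi-likelihood test, in which 5.29% of the 18275 tested genes did. The DESeq2 Wald test, which called 9.21% of the genes it gave an adjusted p, also called 0 of the 10, and so did edgeR scaled by library size alone, with 5.73% of genes called. Limma on FPKM called 0 of the 10 as well, but only 2 of the 18275 tested genes in all (0.0109%), so its count says nothing about the members. DESeq2 gave no adjusted p for TGFB2 and TGFB3. At an unadjusted p under 0.05 there were 4 members, of which TGFBR2 was higher in LX-2FAP and SMAD7, SMAD3 and TGFB1 were lower, beside 22.2% of all tested genes in either direction and 11.6% that were lower. The CPM of the groups did not overlap for SMAD7 and TGFBR2, which is 2 of 10, beside 26.4% of all tested genes. Of the fitted log2 fold changes, 5 lay above 0 and 5 below, with a median of 0.00, against -0.01 over all tested genes.

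**Figure D1:**
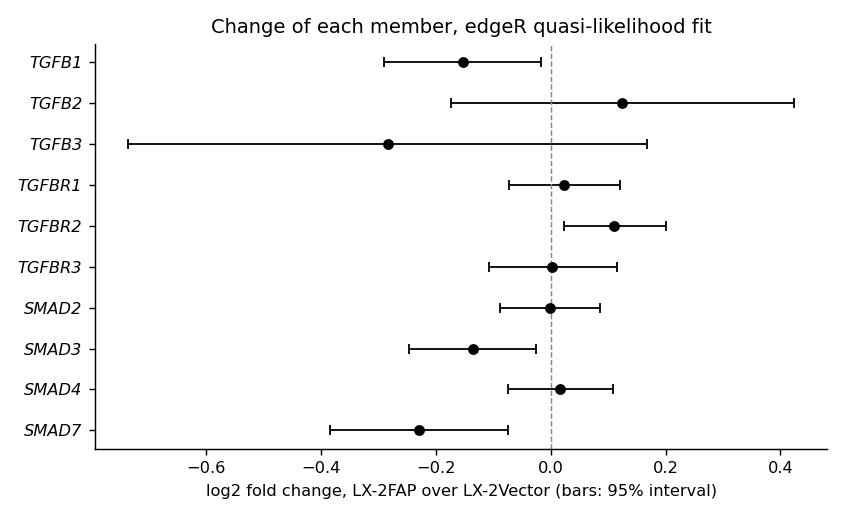
Log2 fold change of each member in LX-2FAP over LX-2Vector from the edgeR fit (horizontal axis; points are estimates from 3 libraries against 3, bars are 95% intervals, the dashed line is no difference). The intervals of SMAD7, SMAD3, TGFB1 and TGFBR2 leave out 0 before adjustment for the number of genes tested, and those of TGFB2 and TGFB3, the members with the fewest counts, are the widest.

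A promoter window each of SMAD7 and TGFBR2 is shown because these were the members whose libraries did not overlap between the groups in CPM and in FPKM alike. The sequences are RefSeq windows of GRCh38.p14, from 250 bases before to 50 bases after an annotated transcription start, read 5′ to 3′ on the gene's strand. SMAD7 has 3 such windows and TGFBR2 has 2, and the window with the most matches is shown for each. The SMAD7 window is chr18:48950916-48951215 on the minus strand, and capitals mark CAGAC, the SMAD binding element. This window lies inside the gene, which begins at 48952052 on that strand in GENCODE release 29, so its start is a downstream one. The TGFBR2 window is chr3:30606351-30606650 on the plus strand, and capitals mark the GC box GGGCGG, bound by SP1, and the AP-1 element TGACTCA, present as its reverse complement.
SMAD7: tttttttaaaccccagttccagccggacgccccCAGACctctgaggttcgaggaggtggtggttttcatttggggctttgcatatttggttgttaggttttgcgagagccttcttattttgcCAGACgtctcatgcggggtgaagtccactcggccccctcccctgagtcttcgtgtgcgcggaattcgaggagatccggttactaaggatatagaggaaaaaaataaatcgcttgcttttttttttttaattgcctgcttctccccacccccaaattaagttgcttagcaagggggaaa
TGFBR2: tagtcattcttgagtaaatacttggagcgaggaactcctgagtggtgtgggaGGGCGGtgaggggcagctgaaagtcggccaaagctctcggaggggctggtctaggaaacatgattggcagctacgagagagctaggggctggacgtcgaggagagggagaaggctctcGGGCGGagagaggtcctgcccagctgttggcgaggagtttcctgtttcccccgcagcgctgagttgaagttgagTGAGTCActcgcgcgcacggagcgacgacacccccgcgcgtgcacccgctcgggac

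In the SMAD7 window CAGAC begins 217 and 128 bases before the start, and in the TGFBR2 window GGGCGG begins 198 and 80 bases before it and TGAGTCA 6 bases before it. Both strands were searched. Of all 35116 windows in the table, 45.3% hold CAGAC, 45.0% hold GGGCGG and 4.9% hold TGACTCA, and of the 26 windows of the 10 members 11, 11 and 2 do. The longer palindrome GTCTAGAC, which shares the letters AGAC with CAGAC, is in 0.202% of all windows and in 0 of the 26. These are matches of letters in a short window and are given as a description.

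Levels were compared between members in FPKM, counts scaled to library size and divided by gene length. In LX-2Vector the order of mean levels was TGFBR1, SMAD3, TGFB1, TGFBR2, SMAD4, TGFBR3, SMAD2, SMAD7, TGFB2 and TGFB3, from 34.5 down to 0.478 FPKM. Each member lay above the next in that order in 6 of 6 libraries, counting both groups, except TGFB1 above TGFBR2, in 4 of 6, and TGFB2 above TGFB3, in 5 of 6. The means of TGFBR3 and SMAD2, at 5.25 ± 0.211 and 5.05 ± 0.145 FPKM (SD, n = 3), differed by less than their SDs together. SMAD2 has the longest deposited gene length of the members, 36426 bases, by which its FPKM was divided.

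**Figure D2:**
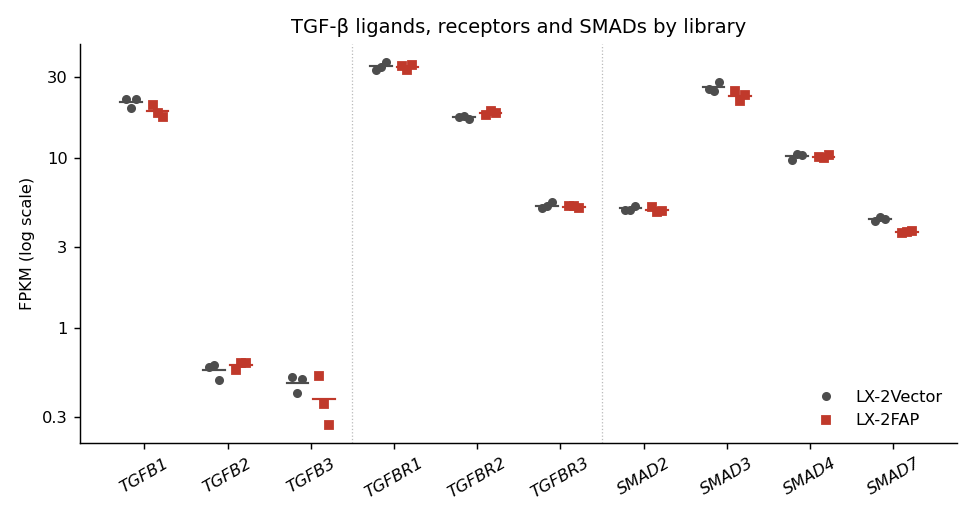
FPKM of each member (vertical axis, log scale) in the 3 LX-2Vector libraries (grey circles) and the 3 LX-2FAP libraries (red squares); horizontal lines are group means and dotted lines part ligands, receptors and SMADs. TGFB2 and TGFB3 lie below 1 FPKM in all 6 libraries, far under TGFB1 at 17.5 to 22.3 FPKM. The groups part without overlap for SMAD7 and TGFBR2, as they do in CPM, where 26.4% of all tested genes part. For SMAD3 they part narrowly (24.9 to 28.0 against 21.7 to 24.7 FPKM) and overlap in CPM. The share of all genes that part in FPKM was not computed.

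Among the ligands, RNA of TGFB1 (chr19:41301587-41353911, GRCh38), the isoform best known in liver fibrosis, was by far the most abundant. It made up 95.3 ± 0.357% of the summed ligand FPKM in LX-2Vector (SD, n = 3) and 94.9 to 95.1% in the LX-2FAP libraries. Its level was 22.2, 19.6 and 22.3 FPKM in the LX-2Vector libraries and 20.6, 18.4 and 17.5 FPKM in the LX-2FAP libraries. The groups overlapped, with LX-2Vector library 2 below LX-2FAP library 1. The log2 fold change was -0.15 (SE 0.064, 95% interval -0.29 to -0.02), a difference of -10.1%, with an adjusted p of 0.171 in edgeR. Without LX-2FAP library 1, in which this gene was closest to its LX-2Vector level, the log2 fold change was -0.22 with an adjusted p of 0.0351. That fit called 10.4% of all genes. Without LX-2FAP library 3 the adjusted p of TGFB1 was 0.556.

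TGFB2 (chr1:218346235-218444619) and TGFB3 (chr14:75958099-75982991), the other two ligands, had few counts. TGFB2 had 94, 64 and 63 counts in LX-2Vector and 83, 69 and 80 in LX-2FAP, and TGFB3 had 71, 38 and 55 and then 66, 34 and 30. For both genes the groups overlapped in CPM and in FPKM. The edgeR log2 fold change of TGFB2 was 0.12 (95% interval -0.17 to 0.42, adjusted p 0.661). That of TGFB3 was -0.28 (-0.74 to 0.17, adjusted p 0.474), and neither a difference nor its absence was shown for either. Leaving out 1 library at a time moved the TGFB3 value from -0.60, without LX-2FAP library 1, to -0.08, without LX-2FAP library 3. Of the TGFB2 exon bases in GENCODE release 29, 26.6% are shared on the same strand with TGFB2-OT1, so that reads of these 2 genes could be split by the counting. On the other strand, 6.6% of the TGFB1 exon bases are shared with HNRNPUL1 and 3.3% of those of TGFB3 with TGFB3-AS1, and since the strand setting is not known such reads cannot be told apart.

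The type I receptor TGFBR1 (chr9:99104038-99154192), the kinase that phosphorylates SMAD2 and SMAD3, was the most abundant member. It stood at 32.8, 34.1 and 36.6 FPKM in LX-2Vector and 34.8, 32.9 and 35.2 FPKM in LX-2FAP, with the groups fully mixed. Its log2 fold change was 0.02 (SE 0.046, adjusted p 0.818 in edgeR), and the 95% interval of the difference ran from -4.96% to 8.67%.

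The type II receptor TGFBR2 (chr3:30606502-30694142), which binds the ligand first, was the single member with a higher level in every LX-2FAP library than in any LX-2Vector library. It was at 119, 120 and 116 CPM in LX-2Vector and at 124, 131 and 128 CPM in LX-2FAP, and at 17.4 ± 0.322 and 18.4 ± 0.426 FPKM (SD, n = 3). The gap between the highest control library and the lowest LX-2FAP library was small beside the level itself. The log2 fold change was 0.11 (SE 0.042, 95% interval 0.02 to 0.20), or 8.01% higher, with an unadjusted p of 0.0173 and an adjusted p of 0.126 in edgeR. Over all alternatives it lay between 0.08 and 0.13, with adjusted p from 0.0838 to 0.359.

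TGFBR3 (chr1:91680343-91906335), or betaglycan, the coreceptor that presents ligand, was the least abundant receptor. It was at 5.07, 5.19 and 5.48 FPKM in LX-2Vector and 5.20, 5.19 and 5.07 FPKM in LX-2FAP, with the groups again mixed. Its log2 fold change was 0.00 (SE 0.053, adjusted p 0.983 in edgeR), with a 95% interval of the difference from -7.24% to 8.29%. The shares of TGFBR1, TGFBR2 and TGFBR3 in the summed receptor FPKM were 60.4, 30.5 and 9.19% in LX-2Vector and 59.3, 31.8 and 8.91% in LX-2FAP.

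SMAD2 (chr18:47808957-47931146) and SMAD3 (chr15:67063763-67195195) are the receptor-activated SMADs of this pathway. SMAD2 was at 180, 179 and 188 CPM in LX-2Vector and 188, 178 and 181 CPM in LX-2FAP, and the 95% interval of its difference ran from -5.98% to 6.15% (adjusted p 0.991 in edgeR). SMAD3 was at 253, 246 and 277 CPM in LX-2Vector and 249, 220 and 237 CPM in LX-2FAP. LX-2FAP library 1 lay within the range of the controls, and the other two LX-2FAP libraries lay below it. In FPKM the groups did not overlap, with 24.9 to 28.0 FPKM in LX-2Vector and 21.7 to 24.7 FPKM in LX-2FAP. The log2 fold change of SMAD3 was -0.14 (SE 0.052, 95% interval -0.25 to -0.03), or -9.01%, with an unadjusted p of 0.019 and an adjusted p of 0.134 in edgeR. It was past the threshold without the filter on low counts, with an adjusted p of 0.0443 where 3.9% of genes were called, and without LX-2FAP library 1, with an adjusted p of 0.0473 and a log2 fold change of -0.18. Without LX-2Vector library 3, the highest control, the log2 fold change was -0.08 with an adjusted p of 0.46.

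SMAD4 (chr18:51028394-51085045), the common partner that carries activated SMADs to DNA, was at 9.80, 10.6 and 10.4 FPKM in LX-2Vector and 10.1, 9.99 and 10.4 FPKM in LX-2FAP. The groups were mixed, and the 95% interval of the difference ran from -5.05% to 7.79% (adjusted p 0.867 in edgeR). Of its exon bases, 7.4% are shared on the same strand with AC091551.1.

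SMAD7 (chr18:48919853-48952052), the inhibitory SMAD whose gene is itself induced by TGF-β, had the smallest p-value of the members. Its counts were 444, 310 and 364 in LX-2Vector and 345, 263 and 313 in LX-2FAP, which were 16.8, 17.7 and 17.1 CPM and 14.4, 14.6 and 14.9 CPM. All 3 LX-2FAP libraries lay below all 3 LX-2Vector libraries, in FPKM too, where the groups were at 4.39 ± 0.129 and 3.67 ± 0.0626 (SD, n = 3). The log2 fold change was -0.23 (SE 0.073, 95% interval -0.38 to -0.07), or -14.7%, with an unadjusted p of 0.00654 and an adjusted p of 0.0767 in edgeR. Over all alternatives it lay between -0.26 and -0.20, with adjusted p from 0.0508, for scaling by library size alone, to 0.242, without LX-2FAP library 3.

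**Figure D3:**
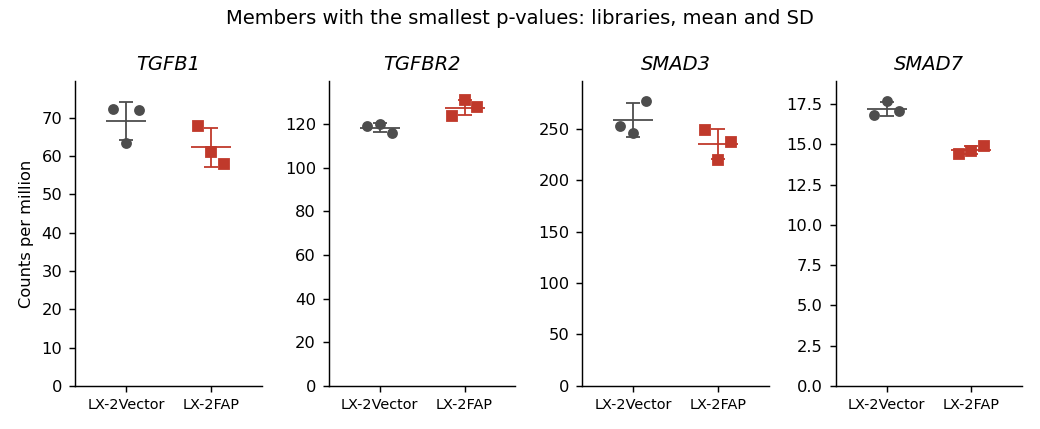
CPM (vertical axes, from 0) of the 4 members with an unadjusted p under 0.05 in the 3 LX-2Vector libraries (grey circles) and the 3 LX-2FAP libraries (red squares); horizontal marks are means and bars are SD. SMAD7 (16.8 to 17.7 against 14.4 to 14.9 CPM) and TGFBR2 (116 to 120 against 124 to 131 CPM) do not overlap, whereas TGFB1 and SMAD3 do.

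By a rule on likeness, the non-member genes whose log2 CPM followed that of SMAD7 most closely over the 6 libraries were IP6K2, SLC37A4 and BTD. Their Pearson correlations were 0.998, 0.991 and 0.99, out of 11548 genes compared, of which 133 had a correlation of at least 0.9. The 6 points share their 2 groups, so a gene that differs between the groups with little spread inside them scores high, and the correlation is a description. None of these genes passed the edgeR test, with adjusted p of 0.355, 0.224 and 0.414.

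Ratios of 2 members within a library do not depend on how libraries are scaled. The ratio of SMAD2 to SMAD3 was 0.195, 0.2 and 0.187 in LX-2Vector and 0.207, 0.222 and 0.209 in LX-2FAP, on FPKM. All LX-2FAP libraries lay above all LX-2Vector libraries, the nearest at 0.207 and 0.2, and the group means of the log2 ratio differed by 0.14. The 2-sided exact permutation p was 0.1, the smallest that 3 libraries against 3 allow, and 0.3 after adjustment over the 3 ratios. On counts, without dividing by length, the same ratio was 0.708 and 0.777, so the order of SMAD2 below SMAD3 held but its size did not. The ratio of TGFB2 to TGFB1 was 0.0266 ± 0.00441 in LX-2Vector and 0.0323 ± 0.00428 in LX-2FAP (SD, n = 3), with overlap and an exact permutation p of 0.2, or 0.3 adjusted. The ratio of TGFBR1 to TGFBR2 was 1.99 ± 0.141 and 1.87 ± 0.103 (SD, n = 3), with overlap and an exact permutation p of 0.5, also after adjustment. Without LX-2Vector library 3 the log2 difference of TGFB2 to TGFB1 was 0.16, against 0.29 with all libraries, and that of TGFBR1 to TGFBR2 was -0.03, against -0.09, and without LX-2FAP library 2 the latter was -0.04.

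**Figure D4:**
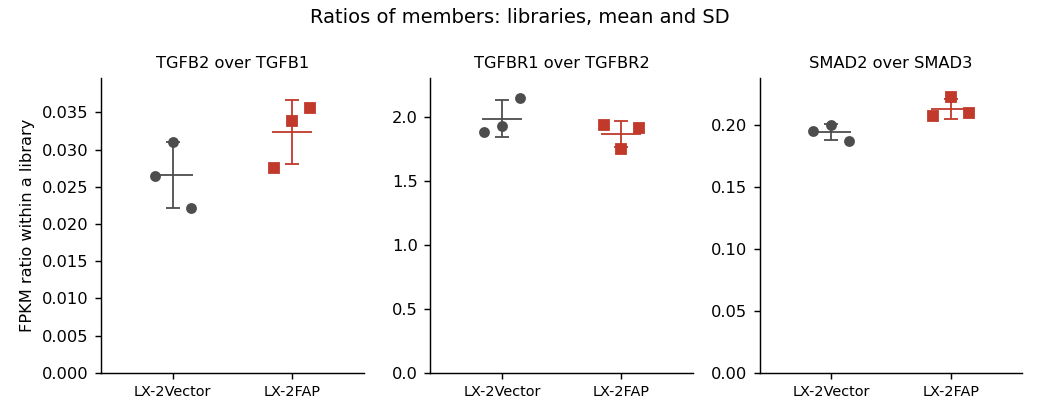
FPKM ratio of 2 members within each library (vertical axes, from 0) for TGFB2 over TGFB1, TGFBR1 over TGFBR2 and SMAD2 over SMAD3, in LX-2Vector (grey circles) and LX-2FAP (red squares), 3 libraries each; horizontal marks are means and bars are SD. The groups part only for SMAD2 over SMAD3, at 0.187 to 0.2 against 0.207 to 0.222.

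Other genes of the pathway were taken from 3 lists, chosen with earlier results of these data known. The counts called in the lists are therefore given as a description. Of 16 genes that hold the ligands latent or release them, 15 were tested, and 2 fell in LX-2FAP, beside 2.73% of all tested genes. Both encode latent TGF-β binding proteins, which tether the latent ligand to the matrix. LTBP3 was at 52.8, 47.0 and 47.9 CPM in LX-2Vector and 44.3, 36.7 and 36.7 CPM in LX-2FAP, with no overlap (edgeR adjusted p 0.0209, for a log2 fold change of -0.33 with SE 0.073). LTBP4 was at 52.3, 44.8 and 54.5 CPM and 45.1, 30.9 and 33.3 CPM, where LX-2FAP library 1 overlapped the controls (-0.47, SE 0.106, adjusted p 0.0231). FURIN, the protease that cleaves the ligand precursor, and ITGB1, the integrin β1 subunit, had the highest levels of this list, with log2 fold changes of -0.03 (adjusted p 0.811) and 0.09 (adjusted p 0.143). The list's median was -0.08.

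Of 23 coreceptors, inhibitors and other regulators, all were tested, and 2 rose in LX-2FAP, beside 2.57% of all tested genes. SMURF2, the ubiquitin ligase that SMAD7 brings to the receptor, was at 198, 201 and 203 CPM in LX-2Vector and 227, 231 and 230 CPM in LX-2FAP (edgeR adjusted p 0.0122, for a log2 fold change of 0.19 with SE 0.038). USP15, a deubiquitinase that opposes it at the receptor, was at 62.8, 63.8 and 63.8 CPM and 71.9, 71.4 and 71.7 CPM (0.18, SE 0.045, adjusted p 0.0339). Neither gene overlapped between the groups. STRAP, a receptor-binding protein that acts with SMAD7, and FKBP1A, which binds the type I receptor, had the highest levels, with log2 fold changes of 0.15 (adjusted p 0.0692) and 0.06 (adjusted p 0.393). The list's median was 0.02.

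Of 32 genes known to be induced by TGF-β in mesenchymal cells, SMAD7 among them, 28 were tested. At an adjusted p under 0.05 in edgeR, 6 fell in LX-2FAP and none rose, beside 2.73% and 2.57% of all tested genes. At an unadjusted p under 0.05 in edgeR, 11 were lower, SMAD7 among them, and 1 was higher. Of all tested genes, 11.6% were lower at that level and 22.2% differed in either direction. Without the genes that are also in another list, 6 of 24 fell, and 10 were lower and 1 higher at that unadjusted p. The median log2 fold change of the full list was -0.14. COL3A1, a fibrillar collagen, was at 39.6, 37.8 and 47.7 CPM in LX-2Vector and 31.6, 19.9 and 25.2 CPM in LX-2FAP, which is -0.69 on the log2 scale (SE 0.119, adjusted p 0.00765). COL1A1 had a log2 fold change of -0.40 (SE 0.080, adjusted p 0.0135), and FN1, fibronectin, of -0.19 (SE 0.053, adjusted p 0.0498, with overlap between the groups). TGFBI, a secreted matrix protein, had -0.36 (SE 0.069, adjusted p 0.0115). The transcription factors JUNB and BHLHE40 had -0.42 (SE 0.075, adjusted p 0.00823) and -0.51 (SE 0.104, adjusted p 0.0152), and 14.2% of the JUNB exon bases are shared with HOOK2 on the other strand. TIMP1, an inhibitor of matrix proteases and among the most abundant genes of the list, had 0.07 (adjusted p 0.31).

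None of the 10 list genes named as changed was called without LX-2FAP library 3, when 0.138% of all genes were called, and without LX-2FAP library 2, when 0.687% were, COL3A1 and JUNB alone were. Without LX-2Vector library 1, LTBP3, LTBP4, COL1A1 and FN1 were not called, without LX-2Vector library 3 LTBP4 and FN1 were not, and without any 1 of the LX-2Vector libraries USP15 was not. The fits without LX-2Vector library 1, 2 and 3 called 2.09%, 3.54% and 2.12% of all genes. The DESeq2 Wald test did not call LTBP4, COL1A1 and BHLHE40, although it called 9.21% of the genes it gave an adjusted p. In edgeR, FN1 was not called with DESeq2 size factors, and USP15 was not with library size alone, when 5.73% of all genes were. With limma on FPKM, which called 0.0109% of all genes, none of the 10 was called. Without LX-2FAP library 1, 4 latency genes, 4 regulators and 9 targets were called, when 10.4% of all genes were. The genes not tested, ITGB6, POSTN, NOX4, ELN and COMP, had between 0 and 6 counts in each library.

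**Figure D5:**
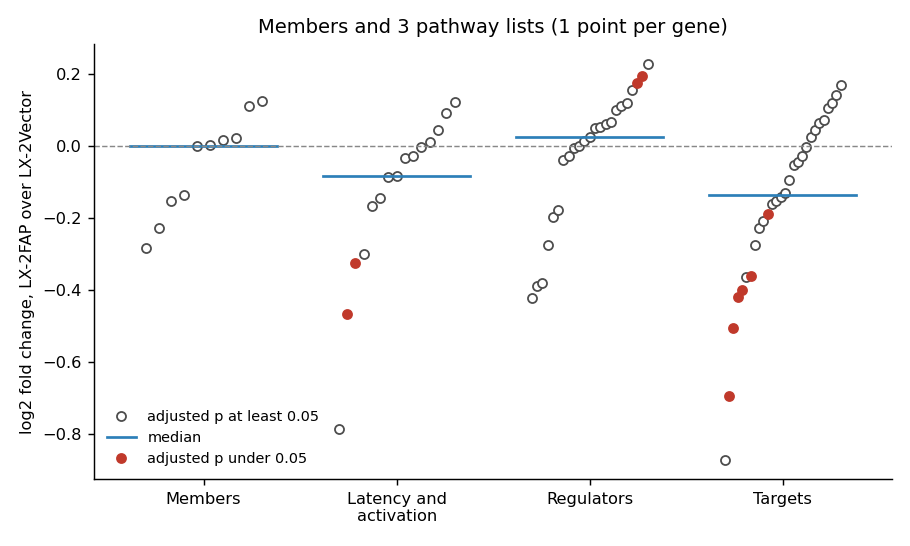
Log2 fold change in LX-2FAP over LX-2Vector (vertical axis) of the 10 members and of the tested genes of the 3 lists, 1 point per gene in order of size; filled red points have an edgeR adjusted p under 0.05 and blue lines are medians. None of the members is filled, whereas 2 latency and activation genes and 6 targets are filled below 0 and 2 regulators above 0; SMAD7 is shown with both the members and the targets, and LTBP2, SKIL and PMEPA1 with 2 lists.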

How the data were processed

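RNA of 3 LX-2Vector and 3 LX-2FAP libraries was sequenced, with groups and replicate numbers taken from the sample titles. The authors deposited whole-number counts per gene, not normalized, and FPKM values computed by the authors from those counts and a gene length. The submitters' processing notes name HISAT2 2.0.5, featureCounts 1.5.0-p3 and build hg18. The table gives no coordinates, and its identifiers and lengths were looked up in GENCODE release 29 (GRCh38), which gave all positions printed. The use of strand in counting is not given in the sources used here. The labels describe depletion of ribosomal RNA and the methods also a poly(A) step.

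The fit ran on counts of the whole table in edgeR 4.0.16 (R 4.3.3), by its quasi-likelihood test, with TMM scaling and the default filter (minimum count 10, minimum total 15) and no covariate. P-values were 2-sided and adjusted over all 18275 tested genes by the Benjamini-Hochberg method, with 0.05 as the threshold, and CPM used TMM library sizes. Standard errors and 95% intervals came from the test statistic. Scripts were tested on simulated data. Alternatives were DESeq2 1.42.0, its size factors, library size alone, other filters, limma 3.58.1 on log2(FPKM + 1) and log2(FPKM + 0.1), a replicate block, and each library left out. Replicates differed by more than sampling noise, by 2.02 to 4.99 in chi-square divided by its degrees of freedom. Named genes were FAP, the members and, of each list, every called gene and the 2 with the highest mean FPKM, except that some genes of the lists are not reported here. Likeness was ranked over genes averaging 100 counts or more. Members and lists were chosen with earlier results of these data known. TGFB2 and TGFB3 had 30 to 94 counts per library.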

Additional observations from a re-analysis of the deposited data

How the results depend on the processing

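The count of members called was 0 with all libraries, 1 (SMAD3) without the filter on low counts, and 0 to 2 when 1 library was left out. Over 14 alternatives for each of 10 members, 117 of 140 values were counted as unchanged in direction and side of the threshold. That count includes the DESeq2 values of TGFB2 and TGFB3, which kept their direction but had no adjusted p. Another 3 passed the threshold (SMAD3 at -0.14 without the filter, and TGFB1 at -0.22 and SMAD3 at -0.18 without LX-2FAP library 1), and 20 changed sign. In 6 members the sign never changed. The sign changes were in members near 0. TGFBR1 was -0.006 with library size alone, -0.005 with limma on FPKM at both pseudocounts, and -0.008 to 0.073 with 1 library left out. TGFBR3 was -0.025 with library size alone, -0.021 and -0.025 with limma at pseudocounts of 1 and 0.1, and -0.018 to 0.042 with 1 library left out. SMAD2 was 0.012 with DESeq2, 0.005 with its size factors, and -0.023 to 0.028 with 1 library left out. SMAD4 was -0.012 with library size alone, -0.012 and -0.013 with limma, and -0.011 to 0.043 with 1 library left out. The cause was not tested.

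With 1 library left out, called latency and activation genes ranged from 0 to 4, regulators from 0 to 4 and targets from 0 to 9. Latency and activation genes called were 1 with DESeq2 and 0 with limma at either pseudocount. Regulators called were 1 with library size alone and 0 with limma at either pseudocount. Targets called were 10 without the filter on low counts and 0 with limma at either pseudocount, where limma called 2 genes in all. Over all genes, 967 were called, 1606 without the filter, and 26 to 1949 with 1 library left out. The share of TGFB1 in the ligands was 92.2% on CPM, which does not divide by length.

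With the replicate number as a block, 0 members, 2 latency and activation genes, 2 regulators and 6 targets were called, as without it, and 975 genes in all. Deviations of same-numbered libraries correlated at -0.136, 0.199 and -0.077, against -0.347 to 0.376 for libraries with different numbers. So few values do not show a pairing by number and cannot exclude one. TGFB2 and TGFB3, with 30 to 94 counts per library, had the widest intervals of the members. With 1 library left out, the log2 difference of TGFB2 over TGFB1 ran from 0.163 to 0.404, of TGFBR1 over TGFBR2 from -0.126 to -0.031 and of SMAD2 over SMAD3 from 0.104 to 0.159, and none changed sign.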
